A study of Mus musculus with 9 samples.

Results

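The AAV-Control tumours were 3 spontaneous breast adenocarcinomas of mice, out of 9 tumours sequenced in all, and were taken by the treatment given in their labels. Their expression profile is described here by itself, with no comparison against the other 6 tumours. All carried the transgene K14-Cre, the Trp53 genotype Trp53wm-R172H/fl and 1 copy of a Rosa26 allele (Rosa26LSL CAS9-P2A-EGFP/+). K14-Cre expresses Cre recombinase from the keratin 14 promoter, which is active in basal cells of stratified and mammary epithelium. The Rosa26 allele makes Cas9 and EGFP once Cre has removed a stop cassette, R172H swaps 1 amino acid of the domain with which p53 binds DNA, and fl marks a Trp53 allele that Cre can delete. The labels do not spell out wm, the strain or the age of the mice, and do not say that each tumour came from a separate animal. Each tumour received a control adeno-associated virus (AAV) on days 0, 3 and 8 and was taken when the animal met the criteria for euthanasia, so none of the 3 was an untreated tumour, and the labels give no interval to collection. With 1 library per tumour, the spread given below is that between 3 libraries, and any technical part of it was not measured.

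The mammary gland is a bilayered epithelium, with luminal cells that line the ducts and make milk, and basal cells that contract and rest on the basement membrane. Luminal cells are recognised by keratins 8, 18 and 19 and basal cells by keratins 5 and 14, by p63 and by smooth muscle proteins. p53 is a transcription factor that is held low by the ubiquitin ligase Mdm2 and that switches on genes of arrest, repair and death, and missense mutants lose most of that activity and often build up as protein. RNA levels do not show that build-up, and gene counts do not tell R172H transcripts from others.

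The libraries held 26954188, 30953250 and 26280250 counts in AAV-Control 1, 2 and 3. Levels of a gene between tumours are given as counts per 1000000 counts (CPM), scaled by TMM factors, and levels between genes as CPM per kilobase of exon (RPKM). Unless stated otherwise, 3 values in a row are those of AAV-Control 1, 2 and 3 in that order. At 1 CPM a gene had 25.5 to 30.2 counts, which gave 95% Poisson intervals between 0.635 and 1.46 CPM. A count of 0 allowed up to 0.105, 0.0995 and 0.118 CPM. These intervals cover counting error only, and the difference between 2 tumours has no replicate of its own. No pair of libraries was alike within sampling noise, since chi-square per degree of freedom of the counts was 158 to 289.

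The most abundant messages were those of respiration, translation and the cytoskeleton, and that of B2m, a gene of antigen presentation. mt-Co1, a subunit of cytochrome c oxidase encoded in mitochondria, led with 8981, 6303 and 13668 RPKM. Eef1a1, the elongation factor that brings tRNA to the ribosome, followed with 2589, 2592 and 2913 RPKM, the most even of the leading genes. B2m, the light chain of MHC class I, was at 1766, 1163 and 2655 RPKM and Actb, cytoplasmic actin, at 1979, 2347 and 1164 RPKM. B2m was highest in AAV-Control 3 and Actb lowest there. Acta2, smooth muscle actin, which basal mammary cells, myofibroblasts and vessel walls all make, ranked 13 among protein-coding genes with 373, 1255 and 625 RPKM. Apoe, a lipid carrier made by macrophages among other cells, was at 532, 1130.4 and 571 RPKM. Both had their highest value in AAV-Control 2. Among the 100 most abundant protein-coding genes, 29 encode ribosomal proteins, 5 are mitochondrial and 1 is a collagen, Col4a1 of the basement membrane.

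**Figure D1:**
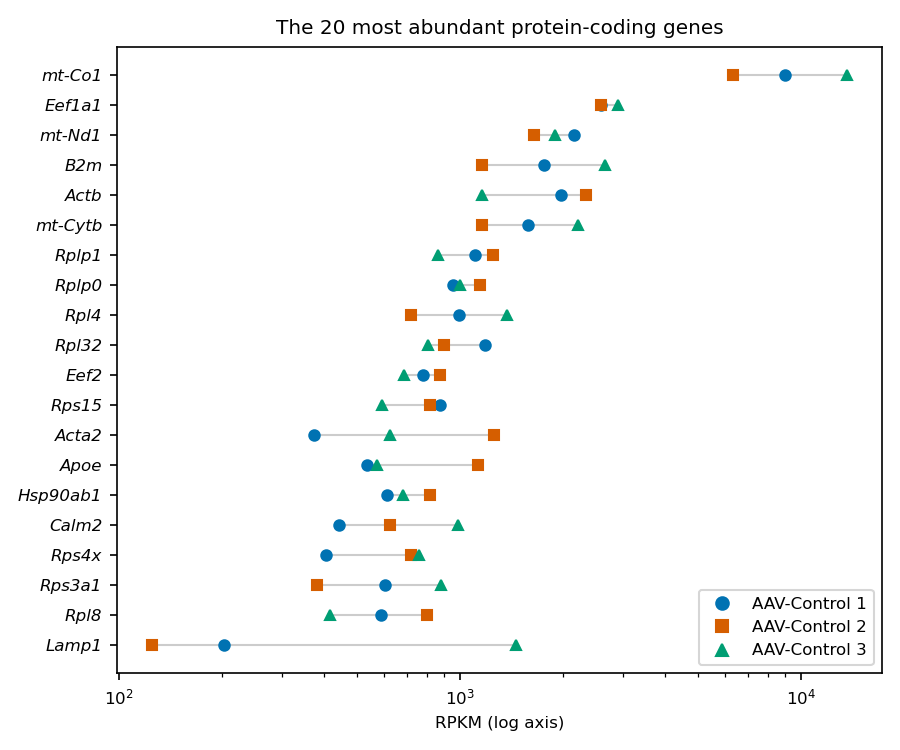
RPKM on a log axis of the 20 protein-coding genes with the highest mean RPKM, 1 point for each of the 3 tumours and a grey line over their range. Eef1a1 lies within 2589 to 2913 RPKM, while Lamp1, at the bottom, spans 125 to 1464 RPKM because of AAV-Control 3.

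Of these 100 genes, 13 spanned 4-fold or more between the tumours. Lamp1, a lysosomal membrane protein, entered the first 20 through a single tumour, with 204, 125 and 1464 RPKM. The next gene, Cct2, a subunit of the chaperonin that folds actin and tubulin, was at 177, 126 and 1432 RPKM. Both were highest in AAV-Control 3, and both lie in runs of neighbouring genes described below. The 100 most abundant genes held 25.9% ± 2.48 (SD, n = 3) of the summed protein-coding RPKM, the first 10 held 11.1% ± 1.93, and the first 1000 held 55.5% ± 2.32.

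Total RNA libraries also hold non-coding RNA, and the shares of these RNAs differed between the tumours. Rn7sk, the small nuclear RNA that keeps the elongation factor P-TEFb inactive, took 6.00%, 8.03% and 3.97% of all counts. Rpph1, the RNA of ribonuclease P, took 1.58%, 2.49% and 0.182%. AAV-Control 2 had the highest share of both and AAV-Control 3 the lowest. Malat1, a nuclear long non-coding RNA, went the other way, with 0.576%, 0.306% and 1.04%, as did the mitochondrial genome, with 5.17%, 3.07% and 6.39%. Protein-coding genes held 86.2%, 85.1% and 88.8%. H19, an imprinted long non-coding RNA that is shut down in most adult tissue, was at 134, 30.6 and 519 CPM. Xist, the RNA that coats the inactive X chromosome, was far more even, at 808, 849.6 and 921 CPM.

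Some messages that are usually abundant were almost missing from the counts. Counts of mt-Co2 and mt-Co3, which with mt-Co1 form the catalytic core of cytochrome c oxidase, came to 1.79, 3.22 and 2.67 CPM and 2.63, 6.23 and 2.94 CPM, against 13876, 9738 and 21117 CPM for mt-Co1. mt-Nd4l, a subunit of complex I, was at 0.0351, 0 and 0.0392 CPM. Tagln, a smooth muscle protein, was at 0.701, 1.49 and 0.706 CPM although Acta2 was at 819, 2756 and 1373 CPM, and 67.9% of its exon bases are also covered by exons of genes on the other strand, Pcsk7 and Gm48529. S100a4, a calcium-binding protein of stroma and motile cells, was at 0.105, 0.298 and 0.235 CPM, and 51.7% of its exon bases overlap Gm42674 on the same strand. mt-Co2 and mt-Co3 share at most 0.128% of their bases with an annotated gene. The part of close copies and of overlapping genes in these low values was not tested, so the levels of these genes are uncertain, as are those of Gapdh, Ftl1, histone, haemoglobin, immunoglobulin and ribosomal protein genes, which have near-identical copies.

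Of 21734 protein-coding genes, 10704 (49.2%) reached 1 RPKM in all 3 tumours, 12616 did so in at least 1, and 166 reached 100 RPKM in all 3. A mean of 1 CPM or more was reached by 15946 genes, 13599 of them protein-coding, and the spread is described over these, called expressed genes below. The median coefficient of variation (CV) of a protein-coding gene was 30.8%, and 58.8% of the genes stayed within 2-fold from the lowest to the highest tumour, while 1619 (11.9%) spanned more than 4-fold. The biological coefficient of variation, the spread beyond counting error that edgeR estimated for all genes jointly, was 51.8%. Across genes, Spearman's rho of log2 CPM was 0.917 between AAV-Control 1 and 2, 0.926 between 1 and 3 and 0.899 between 2 and 3. The genes share their libraries and are not independent, so these are descriptions. AAV-Control 2 and 3 were the least alike, with 8.50% of genes at least 4-fold apart, against 6.19% and 5.28% for the other pairs.

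A gene was called high or low in 1 tumour alone when its log2 CPM (prior count 2) lay at least 4-fold above or below both others. By this rule 189 genes (1.19% of 15946) were high in AAV-Control 1 alone, 263 (1.65%) in AAV-Control 2 and 216 (1.35%) in AAV-Control 3. Low in 1 tumour alone were 90 genes (0.564%), 238 (1.49%) and 189 (1.19%). With 1 of the other tumours left out, so that a single tumour had to be passed, the numbers high were 474 to 521, 500 to 686 and 403 to 671. The shares over all genes are the background for the counts given for gene lists. At such shares, a short list with no call does not stand out from all genes. Of the expressed protein-coding genes, the highest tumour was AAV-Control 1 for 30.1%, AAV-Control 2 for 38.1% and AAV-Control 3 for 31.8%. A list level is the mean of log2(RPKM + 0.1) over the genes of the list.

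The lists differed widely in how far the tumours lay apart. The most even lists were the translation machinery, cell cycle genes and tumour suppressors, with median CVs of 21.1%, 21.4% and 22.9%. Macrophage genes came close, at 23.4%. Not every list of growth and upkeep was even, with 34.2% for oncogenes, 34.9% for cytoskeleton and housekeeping genes and 53.3% for growth factors. The least even were lists of blood, nerve and muscle cells. Their median CV was 113% for neutrophil genes, 108% for red blood cell genes, 100.2% for nerve and Schwann cell genes and 99.5% for skeletal muscle genes. Luminal epithelium (69.4%), collagens (63.2%) and fibroblasts (61.9%) lay between these, at more than the 30.8% of all protein-coding genes.

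**Figure D2:**
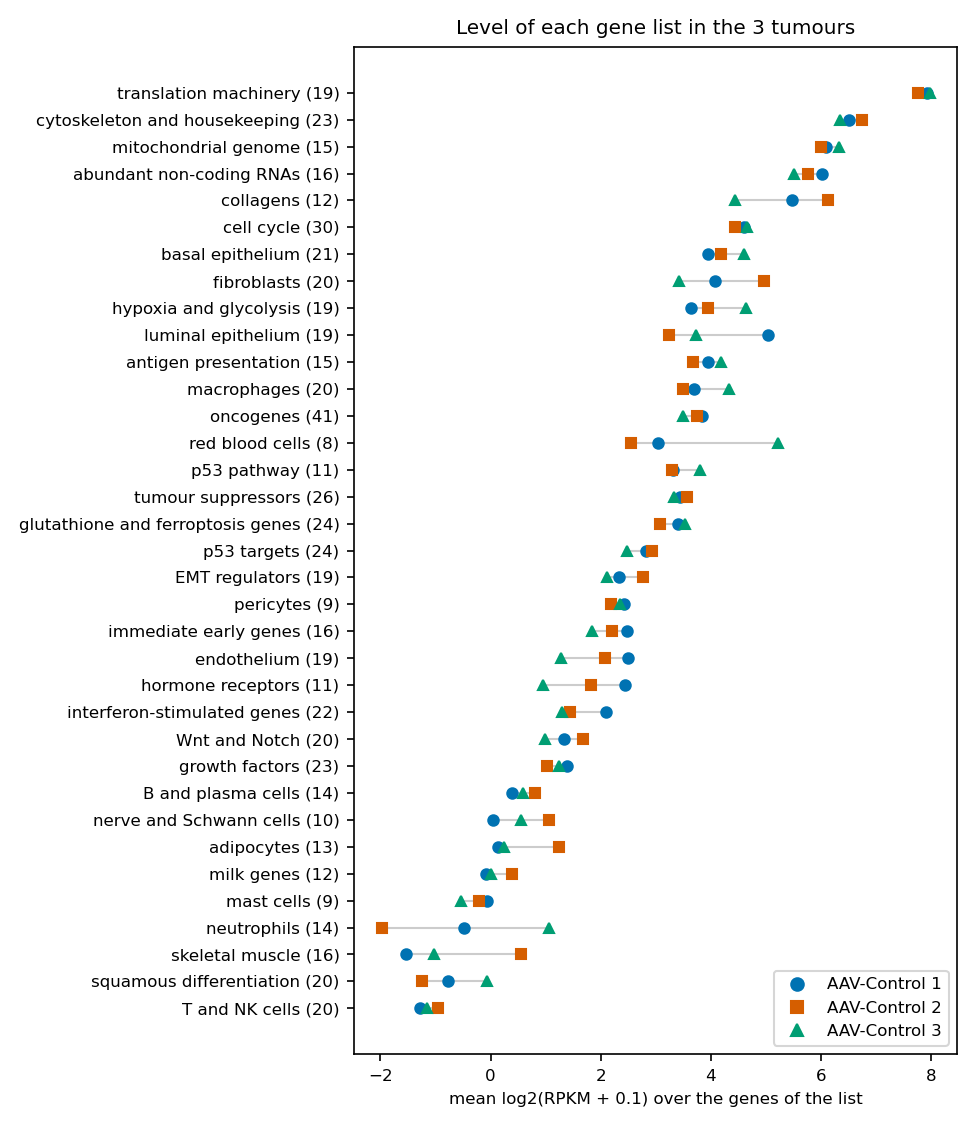
Mean log2(RPKM + 0.1) of each of 35 gene lists in the 3 tumours, with the number of genes found in parentheses and a grey line over the range. Translation and cell cycle lists differ little between tumours, and the red blood cell, neutrophil, skeletal muscle and luminal lists are the most spread out.

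p53 and its regulators were expressed in all 3 tumours, and Mdm2 stood apart in 1. Trp53 (ENSMUSG00000059552.13, GRCm38 chromosome 11, 69580359 to 69591873) was at 48.5, 39.1 and 41.9 CPM, or 43.1 ± 4.80 (SD, n = 3), an even level that came to 10.7 RPKM, above the median of 5.83 RPKM of expressed protein-coding genes. Mdm2 (ENSMUSG00000020184.14, chromosome 10, 117688875 to 117710758, minus strand) was at 90.7, 102 and 555 CPM, and AAV-Control 3 alone passed the 4-fold rule. Mdm4, the partner that blocks p53 transactivation, was at 81.3, 65.8 and 148 CPM. The kinases that signal DNA damage to p53 had their highest value in AAV-Control 3 as well, Atm with 122, 109 and 199 CPM and Atr with 97.2, 76.6 and 168 CPM, but within 4-fold. Cdkn2a, whose p19Arf product restrains Mdm2, was at 29.5, 27.2 and 14.8 CPM, lowest in AAV-Control 3. Trp63, the p53 relative that marks basal epithelium, was the most abundant of the 11 pathway genes in RPKM, at 309, 596 and 345 CPM, and Trp73 among the scarcest, at 3.82, 3.32 and 3.69 CPM.

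The known p53 targets were mostly detected at low to moderate levels, 21 of 24 at 1 RPKM or more in every tumour, with list levels of 2.82, 2.92 and 2.48. The highest tumour was AAV-Control 1 for 10 of them, AAV-Control 2 for 11 and AAV-Control 3 for 3. Over all expressed protein-coding genes the shares were 30.1%, 38.1% and 31.8%. Which tumour had the highest list level changed when scaling was by library size alone. Cdkn1a, which encodes the cell cycle inhibitor p21, was low, at 5.22, 11.7 and 5.61 CPM. Perp, a desmosome protein that p63 also controls, was the most abundant in RPKM, at 226, 577 and 553 CPM. The death genes Bbc3 (Puma) and Pmaip1 (Noxa) were scarce, at 2.95, 3.02 and 0.706 CPM and 8.55, 1.23 and 5.49 CPM. Bax was at 19.04, 18.7 and 8.79 CPM. Eda2r, a death receptor encoded on the X chromosome, was at 3.4, 15.4 and 0.902 CPM, high in AAV-Control 2.

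The labelled tissue was reflected in its epithelial genes, and all 3 tumours carried luminal and basal markers together. Epcam, an epithelial adhesion molecule, was at 523, 719 and 486 CPM and Cdh1, E-cadherin, at 139, 179.7 and 171 CPM, both within 2-fold between tumours. Krt8 was at 592, 214 and 338 CPM and its partner Krt18 at 582, 119 and 304 CPM. The basal keratin Krt5 was at 225, 179.5 and 389.6 CPM, but its usual partner Krt14, whose promoter drives the Cre, was far lower, at 13.9, 3.88 and 52.4 CPM. In bulk RNA, fewer cells of a type and less RNA per cell cannot be told apart, so these levels say nothing of the number of luminal or basal cells.

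Part of the luminal list separated AAV-Control 1 from the others. AAV-Control 1 was the highest tumour for 12 of 19 luminal genes, with list levels of 5.03, 3.24 and 3.73. Of the 19, 4 were high in AAV-Control 1 alone, against 1.19% of all genes. Krt19, a keratin of simple epithelium, was at 729.8, 29.2 and 33.9 CPM. Foxa1, the pioneer factor that opens oestrogen receptor sites, was at 58.7, 0.895 and 2.2 CPM. Prom1, a membrane protein of luminal cells, was at 113, 1.72 and 9.97 CPM, and Prlr, the prolactin receptor, at 518, 107 and 21.7 CPM. In each of these the other 2 tumours lay at least 4-fold below AAV-Control 1. Gata3, a master regulator of luminal fate, was at 92.7, 25.1 and 0.706 CPM, all but absent from AAV-Control 3. Cldn4, a tight junction protein, was at 62.8, 1.06 and 19.1 CPM, and Krt7 at 181, 7.03 and 68.03 CPM, each lowest in AAV-Control 2. Not every luminal gene followed. Elf5, the factor of the alveolar lineage, was at 16.3, 50.5 and 147 CPM, in the reverse order, its relative Ehf was at 68.96, 228 and 354 CPM, and the progenitor receptor Kit was at 116, 428 and 268 CPM.

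The receptors for oestrogen and progesterone were highest in AAV-Control 1, but their list was divided, with AAV-Control 1 the highest tumour for 5 of 10 expressed genes and AAV-Control 2 for the other 5. Esr1, the oestrogen receptor, was at 42.3, 7.53 and 5.81 CPM, and Pgr, the progesterone receptor and its classical target, at 145, 10.6 and 3.45 CPM. Areg, an EGF receptor ligand induced by oestrogen in the gland, was at 67.5, 1.36 and 1.69 CPM. All 3 genes were high in AAV-Control 1 alone. Nr3c1, the glucocorticoid receptor, at 104, 202 and 149 CPM, and Erbb3, at 96.98, 134 and 35.2 CPM, were highest in AAV-Control 2. Erbb2, which encodes HER2, was low and even, at 29.1, 23.4 and 21.03 CPM, and Tff1, an oestrogen-induced secreted peptide, had no count in any tumour. Greb1, another oestrogen target, was low in all 3, at 6.7, 7.1 and 4.04 CPM.

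Basal genes were strong throughout, 19 of 21 at 1 RPKM or more in each tumour, with list levels of 3.96, 4.18 and 4.60. Lama3 and Lamb3, laminin chains that anchor basal cells, were at 162, 273 and 498 CPM and 114, 181 and 271 CPM. Col17a1, a hemidesmosome collagen, was at 596, 95.3 and 351 CPM and Itga6, the laminin receptor chain, at 629, 456 and 569 CPM. AAV-Control 3 was highest for both laminin chains. The contractile genes were low in AAV-Control 1, with Myh11, smooth muscle myosin, at 26.7, 309 and 372 CPM and Cnn1, calponin, at 13.6, 112 and 94.4 CPM, and both were low there by the 4-fold rule. Oxtr, the oxytocin receptor through which basal cells eject milk, was at 1.86, 134 and 9.14 CPM, high in AAV-Control 2 alone. Sox9, a progenitor factor, was low in AAV-Control 2 alone, at 42.8, 5.5 and 44.6 CPM. Krt15 was at 38.1, 2.45 and 3.18 CPM, high in AAV-Control 1 alone. Smooth muscle genes are also made by vessel walls and myofibroblasts, and their part in these levels was not tested. The pericyte list, which marks vessel walls, was at 2.42, 2.18 and 2.35, with AAV-Control 1 highest for 3 of its 9 genes, AAV-Control 2 for 2 and AAV-Control 3 for 4.

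**Figure D3:**
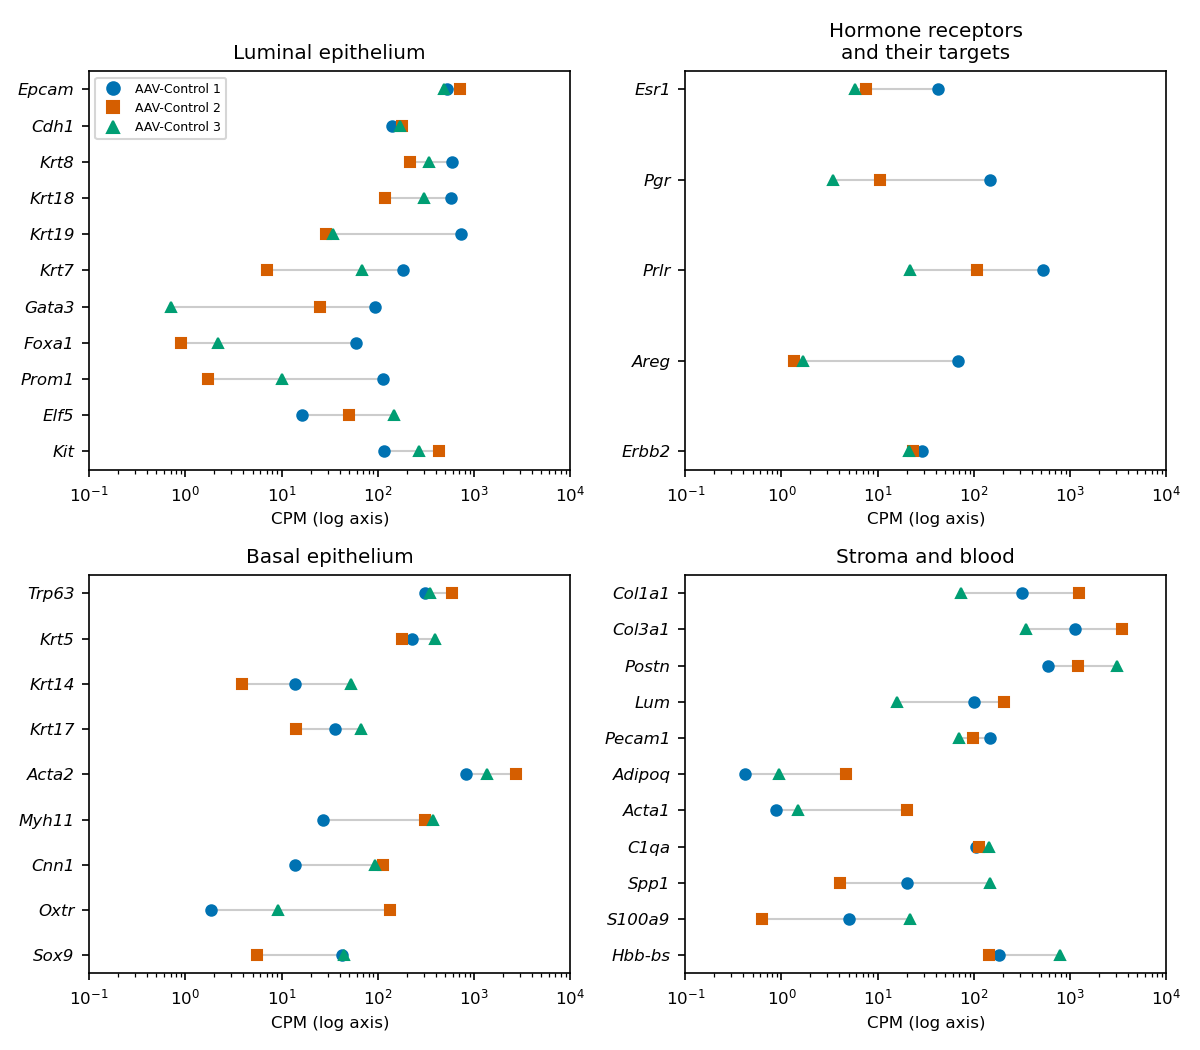
CPM on a log axis of selected luminal, hormone receptor, basal, stromal and blood genes, 1 point for each of the 3 tumours and a grey line over the range. Krt19, Foxa1, Pgr and Areg are highest in AAV-Control 1, Oxtr in AAV-Control 2, and Spp1 and Hbb-bs in AAV-Control 3.

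Terminal differentiation was sparse. Of 20 squamous genes, 4 reached 1 RPKM in every tumour, led by Dsp, the desmosomal plaque protein desmoplakin, at 385, 1118 and 583 CPM. Calml3, an epithelial calmodulin-like protein, was at 6.45, 96.6 and 7.49 CPM. The genes of the cornified layer stayed low, with Ivl, involucrin, at 0.105, 0.0332 and 2.04 CPM, Lor, loricrin, at 0.14, 0.0995 and 0.235 CPM and Flg, filaggrin, at 0.0701, 0.0332 and 4.43 CPM. The few traces went to different tumours, Sprr1a, a cornified envelope protein, to AAV-Control 1 with 11.3, 0.0332 and 1.1 CPM and Krt1, a suprabasal keratin, to AAV-Control 3 with 0.666, 0 and 6.91 CPM. Of 12 milk genes, 5 reached 1 RPKM in every tumour. Csn3, kappa-casein, was at 45.9, 1448 and 52.8 CPM, high in AAV-Control 2 alone, while Csn2, beta-casein, was at 0.245, 0.0663 and 0.235 CPM, Csn1s1 at 0.14, 0.365 and 1.45 CPM and Wap, whey acidic protein, at 0.0351, 0 and 0.0392 CPM. Of the 4 caseins on the list only Csn3 passed a mean of 1 CPM. Mfge8, a milk fat globule protein that other cells also make, was at 279, 939 and 325 CPM.

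Mesenchymal regulators were present beside the epithelial genes, 15 of 19 at 1 RPKM or more in each tumour. None of the 19 was high or low in 1 tumour alone, against 0.564% to 1.65% of all genes for each tumour and direction. Vim, vimentin, was at 421, 306 and 260.1 CPM, Fn1, fibronectin, at 401, 715 and 468 CPM and Cdh2, N-cadherin, at 33.1, 59.3 and 57.8 CPM. Among the transcription factors that repress E-cadherin, Snai2 was even at 51.7, 58.8 and 51.7 CPM, Zeb1 was at 53.3, 52.9 and 32.9 CPM, Zeb2 at 63.8, 85.2 and 91.4 CPM and Twist1 at 13.99, 25.9 and 7.42 CPM, while Snai1 was scarce, at 2.98, 3.08 and 0.981 CPM. Zeb2 is also made by macrophages and other stromal cells, and Vim by stroma in general. The cells that made these RNAs cannot be told from bulk counts.

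Collagen genes differed widely between the tumours. They took 1.20%, 1.54% and 0.672% of all counts. Col3a1, a fibrillar collagen, was at 1134, 3494 and 343 CPM, Col1a1, the main chain of type I collagen, at 314, 1242 and 73.1 CPM and its partner Col1a2 at 500.4, 1576 and 141 CPM. In all 3 chains AAV-Control 2 was highest and AAV-Control 3 lowest, and Col1a1 was low in AAV-Control 3 alone. The basement membrane chains Col4a1, at 3708, 2828 and 2495 CPM, and Col4a2, at 1654, 1354 and 764 CPM, ran in another order, highest in AAV-Control 1.

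Fibroblast genes followed the fibrillar collagens, with AAV-Control 2 the highest tumour for 15 of 20 and list levels of 4.07, 4.96 and 3.41. Decorin (Dcn) was at 266, 461 and 63.95 CPM and lumican (Lum) at 99.6, 204 and 15.9 CPM, small proteoglycans that space collagen fibres. Mmp3, a stromal protease, was at 14.7, 129 and 9.61 CPM, high in AAV-Control 2 alone, and Loxl1, which crosslinks elastin, was at 19, 45.9 and 3.69 CPM. Of the 20 genes, 3 were low in AAV-Control 3 alone, against 1.19% of all genes. Postn, periostin, broke the pattern at 589, 1217 and 3039 CPM, highest in AAV-Control 3, and Pdpn, podoplanin, which basal epithelium also makes, at 191, 263 and 315 CPM, had the same order. Periostin is made by several mesenchymal cells.

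Endothelial genes ordered the tumours differently again, with AAV-Control 1 highest for 15 of 19 and list levels of 2.49, 2.08 and 1.28. Pecam1 was at 146, 97.6 and 69.9 CPM and Cdh5, VE-cadherin, at 179, 125 and 82.3 CPM. Cldn5, an endothelial tight junction protein, was more spread, at 45.2, 16.6 and 5.14 CPM. Lymphatic markers stayed low, with Prox1 at 2.28, 0.133 and 0.628 CPM and Lyve1, which some macrophages share, at 4.7, 9.98 and 12.9 CPM. The pericyte gene Rgs5 was at 218, 139 and 231 CPM. Adipocyte genes were low and favoured AAV-Control 2, highest for 8 of the 11 expressed ones. Adipoq, adiponectin, was at 0.421, 4.68 and 0.942 CPM and Plin1, the lipid droplet coat, at 0.316, 3.15 and 0.392 CPM. Fabp4 and Cd36, which capillary endothelium also makes, were highest in AAV-Control 1, at 148, 32.9 and 66.8 CPM and 109, 42.7 and 54.4 CPM.

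Traces of muscle were found mainly in AAV-Control 2, highest for 12 of the 13 expressed skeletal muscle genes, against 38.1% of expressed protein-coding genes. Of the 13, 7 were high in AAV-Control 2 alone, against 1.65% of all genes. Acta1, skeletal actin, was at 0.876, 20.1 and 1.49 CPM, Ckm, muscle creatine kinase, at 0.245, 7.1 and 1.02 CPM and Myh1, a fast myosin, at 0.701, 12.04 and 0.745 CPM. The list summed to 6.41, 45.6 and 9.91 RPKM, and the luminal list for comparison to 1868, 904 and 1127 RPKM. Ttn, titin, was the exception and highest in AAV-Control 3, at 37.5, 58.9 and 98.9 CPM, and Tnnc2, fast troponin C, had no count in any tumour. The nerve and Schwann cell list was divided, with AAV-Control 2 the highest tumour for 4 of its 7 expressed genes and AAV-Control 3 for 3. Sox10, a neural crest factor that mammary basal cells can express, was at 106, 661 and 194 CPM, and Mbp, a myelin protein, at 26.7, 144 and 15.7 CPM. S100b, a glial calcium-binding protein, at 1.79, 1.99 and 9.65 CPM, and Tubb3, a neuronal tubulin, at 0.28, 0.298 and 5.49 CPM, were high in AAV-Control 3 alone. Pmp2, a myelin gene of Schwann cells, had no count in any tumour.

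Macrophages gave the clearest immune signal. AAV-Control 3 was the highest tumour for 14 of 20 macrophage genes, with list levels of 3.69, 3.49 and 4.32. The complement genes C1qa and C1qb, made mostly by resident macrophages, were even, at 104, 112 and 142 CPM and 94.4, 97.6 and 107 CPM, as was the receptor Csf1r at 56.03, 66.6 and 75.3 CPM. Mrc1, the mannose receptor, was at 79.1, 100.5 and 206 CPM. Spp1, osteopontin, which tumour cells can also make, was at 19.98, 4.01 and 146 CPM and high in AAV-Control 3 alone. Arg1, arginase, was at 63.98, 10.5 and 62.1 CPM and low in AAV-Control 2 alone.

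Neutrophil genes were scarce and had their highest level in AAV-Control 3 for 6 of the 7 expressed ones. S100a9 was at 5.01, 0.63 and 21.6 CPM and S100a8 at 2.98, 0.332 and 17.2 CPM, the subunits of calprotectin. Of 20 genes of T and NK cells, 7 had a mean of 1 CPM or more, and of 14 genes of B and plasma cells 9 did, among them Sdc1, at 159.6, 149 and 128 CPM, and Xbp1, at 87.8, 91.7 and 83.7 CPM, which epithelium also makes. The T cell receptor subunit Cd3e was at 0.14, 0.133 and 0.196 CPM, Cd8a at 0.526, 2.19 and 1.49 CPM and the cytotoxic enzyme Gzmb at 0.736, 0.365 and 0.471 CPM, while Cd4, which mouse macrophages can express, was at 21.3, 31.3 and 4.28 CPM. Among B cell genes Ms4a1 was at 0.28, 0.199 and 0.392 CPM, and the immunoglobulin light chain Igkc was at 14.3, 18.97 and 17.3 CPM. The mast cell protease Cma1 was at 2.73, 1.09 and 0.785 CPM and Cpa3 at 3.79, 1.33 and 1.49 CPM.

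Red blood cell genes marked AAV-Control 3, the highest tumour for 8 of 8, with 6 high in it alone, against 1.35% of all genes. The globin Hbb-bs was at 184, 142 and 782 CPM and Hba-a1 at 38.7, 34.4 and 223 CPM. Alas2, the first enzyme of haem synthesis in erythroid cells, was at 15.7, 14.9 and 90.6 CPM. Macrophage, neutrophil and red cell lists were thus each highest in the same tumour, and the part of blood left in the tissue in these values was not tested.

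Cell cycle genes were expressed at nearly even levels. All 30 cell cycle genes reached 1 RPKM in every tumour, with list levels of 4.60, 4.44 and 4.66. None was high or low in 1 tumour alone, against 0.564% to 1.65% of all genes for each tumour and direction. Mki67, the marker of cycling cells, was at 939, 1352 and 1438 CPM, or 1243 ± 267 (SD, n = 3), and ranked 204 among protein-coding genes by RPKM. Top2a, the mitotic topoisomerase, was at 319, 369 and 669.6 CPM and Ccna2, cyclin A, at 181, 134 and 287 CPM. E2f1, a transcription factor of S phase entry, was the scarcest, at 10.6, 15.7 and 6.71 CPM.

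Oncogenes were broadly expressed, 38 of 41 at 1 RPKM or more in each tumour. Of the 41, 1 was high and 1 low in AAV-Control 2 alone, against 1.65% and 1.49% of all genes. None was called in the other tumours. Ccnd1, cyclin D1, was the most abundant in RPKM, at 443, 742 and 457 CPM, and its kinase partner Cdk4 was at 364, 269 and 129 CPM. Ccnd2, cyclin D2, was at 819, 192 and 517 CPM, lowest in AAV-Control 2, where Ccnd1 was highest. Myc was at 114, 177 and 85.7 CPM. Its relative Mycn was low in AAV-Control 2 alone, at 42.7, 1.69 and 23.7 CPM. Of the small GTPases, Hras was at 110.3, 175 and 77.3 CPM and Nras at 101, 68.5 and 175 CPM, so that AAV-Control 3 had the most Nras and the least Hras. Fgfr2, a fibroblast growth factor receptor, was highest in AAV-Control 1, at 467, 194 and 129.9 CPM, while Fgfr1 was even at 351, 264 and 385 CPM. Erbb4 was high in AAV-Control 2 alone, at 3.93, 26.8 and 1.29 CPM. Cul4a, a ubiquitin ligase scaffold on chromosome 8, was at 174, 118 and 403 CPM, 2.32-fold above the next tumour in AAV-Control 3.

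Receptors and their ligands did not always rank alike. Met, the receptor for hepatocyte growth factor, was at 63.1, 106 and 48.4 CPM while its ligand Hgf was at 5.4, 3.51 and 5.22 CPM. Egfr was at 86.2, 137 and 88.4 CPM, and its ligand Tgfa was at 81.1, 107 and 75.2 CPM. Pdgfa was the most abundant growth factor in RPKM, at 274, 82.1 and 289 CPM, and Kitl, the ligand of Kit, was at 170.3, 172 and 463 CPM. Vegfa, the main inducer of vessel growth, was at 78.1, 91.9 and 196 CPM, highest in the tumour with the lowest endothelial list.

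All 26 tumour suppressor genes reached 1 RPKM in every tumour. None was high or low in 1 tumour alone, against 0.564% to 1.65% of all genes for each tumour and direction. Rb1, the retinoblastoma gene, was at 25.5, 40.2 and 34.2 CPM and Cdkn1b, which encodes p27, at 241, 154 and 338 CPM. Brca1 was at 37.4, 55.5 and 66.6 CPM and Brca2 at 50.1, 51.9 and 53.9 CPM. The RNA level of a suppressor gene does not show whether its coding sequence is intact.

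Signalling and stress lists also differed by tumour. Hypoxia and glycolysis genes were highest in AAV-Control 3 for 13 of 19, with list levels of 3.63, 3.94 and 4.63. Ndrg1, a stress-induced gene, was at 55.2, 19.4 and 191 CPM and Car9, carbonic anhydrase 9, at 2.17, 3.35 and 13.1 CPM. Interferon-stimulated genes were highest in AAV-Control 1 for 18 of 22, with list levels of 2.10, 1.44 and 1.30. No gene of this list was high in 1 tumour alone, against 1.19% to 1.65% of all genes for each tumour. Usp18, which dampens interferon signalling, was at 17.4, 5.17 and 3.84 CPM and Ifit1 at 20.5, 13.4 and 16.6 CPM. MHC class I did not share that order, with H2-K1 at 371, 215 and 667 CPM and B2m at 1519, 999.9 and 2284 CPM, highest in AAV-Control 3. MHC class II was highest in AAV-Control 2, with Cd74, the invariant chain, at 65.4, 130.3 and 49.04 CPM and H2-Aa at 34.3, 62.1 and 26.5 CPM.

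Among Wnt and Notch genes Lgr6, a stem cell receptor, was at 357, 50.9 and 261 CPM and Lgr5 at 0.456, 10.2 and 4.98 CPM, and the Wnt target Axin2 was even and low, at 8.17, 6.93 and 5.14 CPM. Lef1, a transcription factor of Wnt signalling, was high in AAV-Control 3 alone, at 0.21, 1.09 and 11.8 CPM. Of the glutathione and iron genes, Tfrc, the transferrin receptor, was high in AAV-Control 3 alone, at 113, 82.6 and 516 CPM, and Gpx4, which removes lipid peroxides, was even at 97.7, 73.1 and 83.5 CPM. Tfrc is abundant in erythroid precursors and in proliferating cells alike. Among immediate early genes Fos was at 22.02, 4.41 and 5.02 CPM, high in AAV-Control 1 alone, and Nr4a1 at 22.96, 140.2 and 19.4 CPM, high in AAV-Control 2 alone.

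The genes furthest above the other 2 tumours in AAV-Control 1 included secreted proteins and membrane proteins best known from other organs. Fgb, a fibrinogen chain usually made by liver, was at 371, 0.796 and 0 CPM, and the neighbouring Fgg at 111, 0.53 and 0.0392 CPM. Cxcl15, a chemokine best known from lung, was at 113, 0.696 and 0.353 CPM, Upk3a, a bladder membrane protein, at 53.2, 0.0995 and 0.0392 CPM and Calca, the calcitonin gene, at 39.8, 0.0995 and 0 CPM. Tph1, the enzyme of serotonin synthesis, which mammary epithelium can express, was at 27.9, 0.332 and 0.0785 CPM. Esrrb, an orphan nuclear receptor, Aoc1, which breaks down histamine, Dkkl1 and Fam90a1a complete the first 10. Lowest relative to the others were Tmem132d, at 0, 65.4 and 1.57 CPM, Cytl1, Xlr4a, Nlrp9b and Gad1.

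In AAV-Control 2, 7 of the 10 genes furthest above the others lie on the X chromosome. They were the homeobox gene Rhox5, at 1.05, 69.8 and 0.0785 CPM, the copies Rhox2a, Rhox2d, Rhox2g and Rhox2h, the nuclear export factor Nxf3, at 0.175, 138 and 0.824 CPM, and the meiotic cyclin Ccnb3, at 0.0351, 128 and 0 CPM. Rhox genes are named for expression in reproductive tissue, and the Rhox2 copies are so alike that the split of reads between them is uncertain. The other members were Ppp2r2c, a phosphatase subunit, at 0.21, 109 and 0.235 CPM, the water channel Aqp6, at 0, 40.2 and 0 CPM, and the sodium leak channel Nalcn. Furthest below the others were the Wnt inhibitor Wif1, at 61.6, 1.79 and 96.1 CPM, Pi15, at 199, 6.43 and 390.1 CPM, Sema3e, Timd2 and Alx1.

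In AAV-Control 3 the 10 genes furthest above the others lie on 8 chromosomes. Chil1, a chitinase-like protein of inflamed tissue, was at 7.61, 3.05 and 158 CPM and Chil4 at 0, 0 and 36.4 CPM. Cdc16, a subunit of the anaphase-promoting complex, was at 145, 107 and 2168 CPM, 14.9-fold above the next tumour. Fcer2a, a receptor for IgE, was at 0.806, 0.365 and 17.1 CPM. Both Cdc16 and Fcer2a lie on proximal chromosome 8. Others were Tcfl5, Zfp992, Prss35, Dpp6 and Nfasc. Furthest below were Gata3, the collagen gene Col26a1, Kera, Ctsr and Dmbt1, a mucosal scavenger receptor, at 18.4, 5.97 and 0.0785 CPM.

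Many of the genes high in AAV-Control 2 or 3 alone stood near each other. Expressed protein-coding genes were laid out in chromosomal order on GRCm38, and the median difference of a tumour to the mean of the other 2, in log2 CPM, was taken over windows of 11 genes. A window was raised at a median of 1 or more, and overlapping raised windows were joined into runs. Of 13389 windows, 51 (0.381%) were raised in AAV-Control 1, 248 (1.85%) in AAV-Control 2 and 224 (1.67%) in AAV-Control 3, which gave 8, 29 and 17 runs. In AAV-Control 3, 74 of 168 protein-coding genes high in it alone (44.0%) lay in its runs, which held 2.98% of all the genes. The counts were 56 of 229 (24.5%, against 4.17% of genes) in AAV-Control 2 and 5 of 156 (3.21%, against 0.971%) in AAV-Control 1. Counts of raised windows depended on the tumours compared: without AAV-Control 2, AAV-Control 1 had 367, and without AAV-Control 3 it had 117, while without AAV-Control 1 the others had 741 and 401. Scaling by library size alone gave AAV-Control 1 100. The window value and the calls use the same levels, so the overlap is a description.

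The strongest run of AAV-Control 3 was at the proximal end of chromosome 8, from 3122061 to 4237470, with 21 genes at a median of 4.82-fold. Its first 15 genes, from Insr, the insulin receptor, to Fcer2a, were all raised at least 2-fold. The next run began a short way further on, from 4257660 to 21964303, with 52 genes at a median of 2.84-fold, and it was not uniform. Its first 5 genes, from Ctxn1 to Cers4, were not raised, with a median log2 difference of -0.28. The 23 genes from Tubgcp3 to Kbtbd11 (12614277 to 15033333) had a median log2 difference of 3.16, from 1.23 to 4.21. They include Lamp1, Cul4a, the ligand Gas6 at 317, 151 and 1995 CPM, Cdc16 and Upf3a, a factor of nonsense-mediated decay, at 48.1, 19.7 and 569 CPM. The 8 genes from Col4a1 to Arhgef7 (11198423 to 11835219), which lie just before them, were not raised, with a median of -0.41. The 8 genes from Zfp958 to Irs2, before those, were raised at a median of 1.79, and Arglu1, a modulator of splicing among them, was at 237, 128 and 3125 CPM.

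On chromosome 10 the run from 97644068 to 120224917 held 62 genes at a median of 2.57-fold, 39 of them at least 2-fold and 17 high in AAV-Control 3 alone. Mdm2 lay in its distal part, in a stretch of 8 genes from Cpsf6 to Dyrk2 (117344673 to 118870209) with a median log2 difference of 2.50. Cct2, described above, and Frs2, an adaptor of FGF receptors, at 38.5, 50.3 and 379 CPM, lay just upstream. Cpsf6, a subunit of mRNA cleavage factor I, was at 305, 245 and 2060.2 CPM. The macrophage gene Lyz2 and its neighbour Lyz1 sit between them and were not raised, at 343, 238 and 387 and 2.45, 5.14 and 0.902 CPM. A separate stretch further up, from Dusp6 to 4930430F08Rik, had a median of 2.49 and included the ciliary gene Cep290, at 82.1, 44.2 and 562 CPM. Kitl, given above, lies in it too.

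Chromosome 14 held 2 runs of AAV-Control 3. The first, from 45133465 to 50924893, had 32 genes at a median of 3.16-fold, and its 16 genes from Fermt2 to Ktn1 were raised without a gap, Lgals3, galectin 3, among them at 32.1, 12.9 and 74.8 CPM. The second, from 116925315 to 122021034, held Ipo5, a nuclear import receptor, at 126, 206 and 1682 CPM. A run on chromosome 17, from 30624354 to 33394641, held 33 genes at a median of 2.29-fold, with Cbs, an enzyme of cysteine synthesis, at 15.01, 4.21 and 56.03 CPM. Some runs lay over gene families, such as zinc finger genes on chromosome 4 and protocadherins on chromosome 18. A run on chromosome 3, from 90514435 to 94492198, owed its largest differences to genes of the cornified layer, with Flg2, a filaggrin relative, at 0, 0 and 8.87 CPM, and to S100a8, while S100a6, at 125, 72.02 and 80.2 CPM, was not raised.

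**Figure D4:**
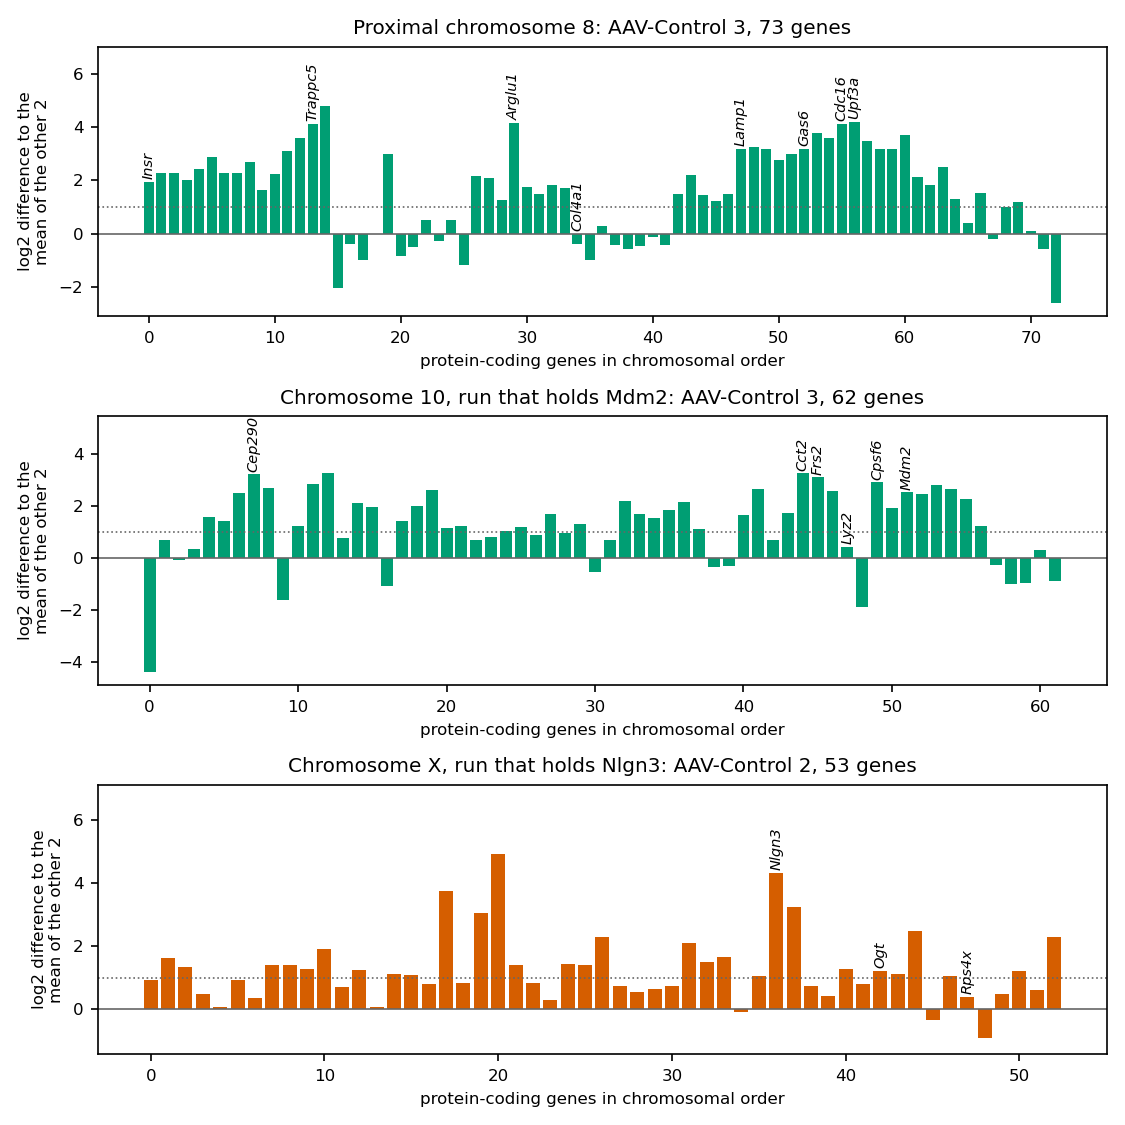
Log2 difference of 1 tumour to the mean of the other 2 for each protein-coding gene, in chromosomal order, in the 2 runs of proximal chromosome 8 and the chromosome 10 run with Mdm2 (AAV-Control 3) and in an X chromosome run (AAV-Control 2); the dotted line marks 1. On chromosome 8 raised blocks alternate with unraised ones such as Col4a1. In the X chromosome run 29 of 53 genes are raised at least 2-fold, and 9 at least 4-fold, Nlgn3 among them.

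In AAV-Control 2 most raised runs lay on the X chromosome and chromosomes 6, 7 and 15. Of 479 X-linked genes, it was the highest tumour for 74.5%, against 36.8% of 13110 autosomal genes, and 35 (7.31%) were high in it alone, against 1.48%. The median log2 difference of X-linked genes was -0.58, 0.76 and -0.19. On autosomes the medians of AAV-Control 2 ran from -0.64 on chromosome 19 to 0.62 on chromosome 15, and those of the other tumours from -0.53 to 0.49. Of its 29 runs, 8 lay on the X chromosome, 6 on chromosome 15, 5 on chromosome 6 and 4 on chromosome 7, and the other 6 on chromosomes 5, 13, 14 and 17. The longest in genes, from 93304767 to 103821983, held 53 genes at a median of 2.13-fold, with Eda2r and Nlgn3, a synaptic adhesion gene, at 0.0701, 4.64 and 0.314 CPM. Another, from 36911326 to 38635087, held the Rhox genes, and its 5 genes at either end were not raised. A run on chromosome 6 held the Hox cluster, where Hoxa5, a patterning factor, was at 0.421, 6.8 and 0.314 CPM and Hoxa9 at 2.63, 0.63 and 0.118 CPM.

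**Figure D5:**
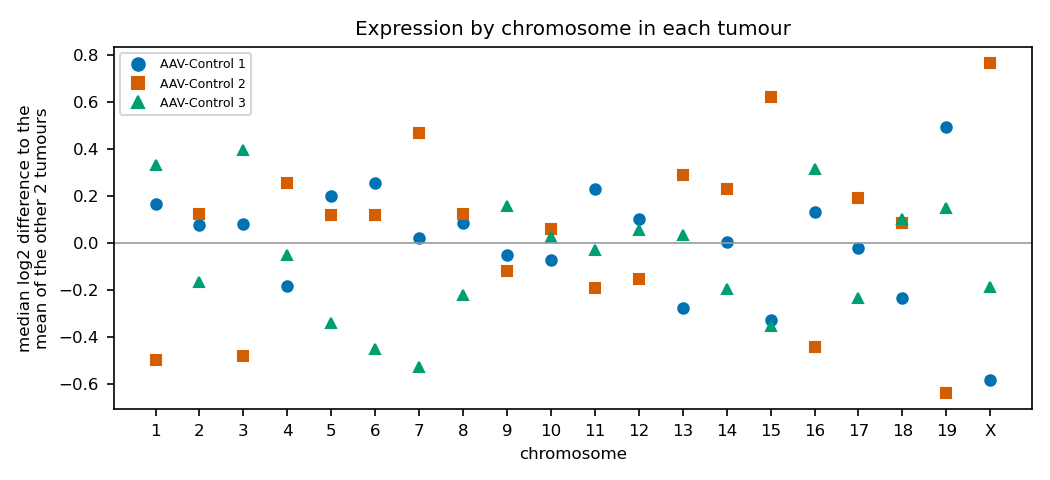
Median over protein-coding genes of the log2 difference of each tumour to the mean of the other 2, by chromosome. AAV-Control 2 lies at 0.76 on the X chromosome and 0.62 on chromosome 15, its highest values, and at -0.64 on chromosome 19, its lowest.

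AAV-Control 1 had 8 runs. The largest, on chromosome 13 from 21421275 to 23764406, held 48 genes at a median of 2.11-fold, 39 of them histone genes. None of the 48 was high in AAV-Control 1 alone, and the run reflects low values in AAV-Control 3 as well: AAV-Control 1 was the highest tumour for 31 of the 39 and AAV-Control 3 the lowest for 39. Hist1h4d was at 532, 415 and 144 CPM, while Hist1h3b, at 143, 155 and 51.4 CPM, was highest in AAV-Control 2. Histone messages have near-identical copies, so single genes of the cluster are uncertain. Another was the keratin cluster of chromosome 15, from 101293212 to 102032027, which holds Krt8, Krt18, Krt5 and Krt7. Of its 14 genes, 8 were raised at least 2-fold and 1 was high in AAV-Control 1 alone. Low values in another tumour had a part in these differences. Krt75, at 1.30, 0.0995 and 1.77 CPM, counted as raised although AAV-Control 3 was highest. Krt18, given above, was lowest in AAV-Control 2, while Krt80, at 3.23, 1.43 and 1.10 CPM, was lowest in AAV-Control 3. Krt5 was not raised, with a log2 difference of -0.23, and was highest in AAV-Control 3. DNA copy number was not measured in these samples, and its part in any run was not tested.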

How the data were processed

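The authors deposited raw read counts per gene in 1 table with 1 column per tumour, and the columns were tied to tumours through the sample titles. Strand-specific total RNA libraries were made, per the labels' protocols. The submitters' processing notes name STAR 2.6.0b, DESeq2 and GRCm38 without saying what each was used for. Not given in the sources used here are the counting program, its strand setting and its annotation release. Of 49585 rows, 49326 matched GENCODE mouse release 21 after the version suffix was removed and 43749 with it, and unmatched rows held at most 0.0400% of a tumour's counts.

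CPM were computed from library sizes with TMM factors of 1.06, 0.974 and 0.970 from edgeR 4.0.16 in R 4.3.3, and RPKM from the union of each gene's exons. The biological coefficient of variation is the square root of edgeR's common dispersion. The calling and window rules and the dispersion estimate were run on simulated counts with known changes. The counts simulated for the calling and window rules had less spread than these tumours. False calls at the spread seen here were therefore not measured. No test was run between groups. The tumours were numbered in accession order.

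The members and the 35 gene lists were chosen with earlier results of these data known. By rule, genes named were the 20 most abundant, up to 8 of each list, the 10 furthest above and 5 furthest below per tumour, run ends and leaders, and 26 fixed genes. Other list members and run genes were named after their values were seen. Where 1 symbol had several rows, the more abundant was used. One list gene, Norad, was not matched and is not analysed here, and some genes that the rule names are not reported here. Alternatives were other scalings, filters, prior counts, thresholds, window sizes, gene lengths and each tumour left out.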

Additional observations from a re-analysis of the deposited data

How the results depend on the processing

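Each result was recomputed with 1 choice changed at a time. The count of protein-coding genes at 1 RPKM or more in all 3 tumours stayed within 1.5 times of 10704 under 7 of 7 alternatives. The share of the 100 most abundant genes went from 25.9% to 21.5% without mitochondrial genes and to 62.2% over genes of every biotype, and the biological coefficient of variation from 51.8% to 58.0% with no filter beyond 1 count in all. Scaling and prior count left the numbers of genes high in AAV-Control 1, 2 and 3 alone within 1.5 times, but a mean of at least 0.1 CPM gave 387, 459 and 527, a mean of at least 5 CPM 95, 159 and 107, and 8-fold 105, 108 and 76. Against a single other tumour the numbers were 474 to 521, 500 to 686 and 403 to 671, since fewer tumours had to be passed. Raised windows, 523 in all, came to 800 with windows of 7 genes and 315 with windows of 21 genes. With 1 tumour left out, an alternative chosen after seeing the data, they ranged from 362 to 1142, the latter without AAV-Control 1. Without AAV-Control 2, 213 windows were raised in AAV-Control 3, and without AAV-Control 1, 401. Library size alone moved AAV-Control 1 up by 0.13 on the log2 scale against AAV-Control 3 and gave 100, 188 and 195 raised windows in the 3 tumours in place of 51, 248 and 224. The median list level of 2.74 became 3.07 with a pseudocount of 1 and 3.07 with the length of the longest transcript. The tumour with the highest list level was the same for 35 of 35 lists with DESeq2 size factors, a pseudocount of 1 and the length of the longest transcript, and for 32 of 35 with library size alone, the exceptions being p53 targets, cell cycle and translation machinery. No paired analysis was possible because the tumours belong to 1 group and their numbers only name them.

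No difference between these tumours has a test, since each is a single library. Counting error weighs most on genes below about 1 CPM, and small differences there, such as those of Cd3e and Ms4a1, are not resolved between tumours at this depth.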
